A study of Homo sapiens with 6 samples.

Results

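SERPINF1, VEGFC and ANGPTL4 encode 3 secreted proteins that act on blood or lymph vessels, and they are 3 of the 7758 genes in the deposited expression table. They were chosen by name from measured values of these same libraries, as genes of the balance between inhibitors and promoters of vessel growth that were lower in the silenced cells, so their own differences are given as a description without a test. Messenger RNA was sequenced from ARPE-19, a cell line grown from human retinal pigment epithelium (RPE), with 3 libraries of cells carrying a scrambled control hairpin (sh-Control) and 3 of cells carrying a hairpin against METTL3 (sh-METTL3). Every library came from cells that had been given lipopolysaccharide (LPS) at 1 ug/ml for 24 h, so no unstimulated level could be compared. The hairpins were delivered by lentivirus and stably infected cells were selected with puromycin. Whether the 3 libraries of a group were separate cultures was not stated, so their spread may be technical.

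The RPE lies between the photoreceptors and the choroidal vessels and releases factors toward both. SERPINF1 encodes pigment epithelium-derived factor (PEDF), a serpin without protease-inhibiting activity that is secreted by RPE cells, restrains the growth of new vessels and supports neurons. VEGFC is a ligand of the receptor VEGFR-3 (FLT4) and, after cleavage, also of VEGFR-2, and is best known for driving the growth of lymphatic vessels. ANGPTL4 is an angiopoietin-like protein that inhibits lipoprotein lipase, is induced by PPAR transcription factors and by hypoxia, and alters vessel growth and permeability. METTL3 is the catalytic subunit of the complex that writes N6-methyladenosine (m6A) into mRNA, mostly within a short consensus of which GGACT, in DNA letters, is a frequent form.

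The genes lie on 3 chromosomes, in GRCh38 coordinates of GENCODE release 29. SERPINF1 (ENSG00000132386) spans chr17:1761959-1777574 on the plus strand, and its principal transcript ENST00000254722.8 has 8 exons, 1548 bases and a coding part of 1254 bases. VEGFC (ENSG00000150630) spans chr4:176683538-176792727 on the minus strand, with 7 exons, 2064 bases and a coding part of 1257 bases in ENST00000618562.1. ANGPTL4 (ENSG00000167772) spans chr19:8363289-8374373 on the plus strand, with 7 exons, 1879 bases and a coding part of 1218 bases in ENST00000301455.6. No annotated gene overlapped SERPINF1. ANGPTL4 overlaps the antisense gene RAB11B-AS1, and VEGFC overlaps AC093801.1 on the opposite strand. Strandedness of the counting was not given in the sources used here, so reads of such a pair cannot be told apart.

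To show where these letters stand, the GGACT match nearest to the last coding base of each transcript is given with the 5 letters in capitals and 10 bases on each side, 5' to 3' on the strand of the gene. The SERPINF1 match is in the coding part of exon 8 (chr17:1777337-1777361), 96 bases from the last coding base. The VEGFC match is in the 3' UTR in exon 7 (chr4:176683759-176683783), at 156 bases, and the ANGPTL4 match is in the 3' UTR in exon 7 (chr19:8374152-8374176), at 279 bases.
SERPINF1: ccttcccgctGGACTatcaccttaa
VEGFC: ttacagaaatGGACTggagctcatc
ANGPTL4: agggagttggGGACTcagagggacc

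The transcripts differed in how often they carry these letters. ANGPTL4 held 6 matches, 4 in the coding part and 2 in the 3' UTR, or 3.19 per kb, which placed it at percentile 99.1 of the 6736 listed protein-coding transcripts searched. SERPINF1 held 2, 1 in the 5' UTR and 1 in the coding part, at 1.29 per kb and percentile 70.0. VEGFC also held 2, 1 in the coding part and 1 in the 3' UTR, at 0.969 per kb and percentile 51.3. The median of the searched transcripts was 0.945 per kb. A match is a stretch of letters, and methylation of these transcripts was not analysed here. The study itself counted VEGFC and ANGPTL4 among genes with lower m6A after METTL3 silencing.

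The regions just upstream of the transcription start could be read for VEGFC and ANGPTL4 from RefSeq (GRCh38.p14), and the 250 bases are given 5' to 3' on the strand of each gene, to set the promoters of genes that were lower together side by side. Capitals mark matches on either strand to any of the searched motifs: GGGCGG, the box bound by SP1 family factors, then TATAAA, the box bound by the general transcription machinery, and ACGTG, the core of the hypoxia response element. The VEGFC stretch is chr4:176792923-176793172 on the minus strand and the ANGPTL4 stretch is chr19:8363905-8364154 on the plus strand. The latter is upstream of the RefSeq start but inside the GENCODE gene, whose first annotated transcript starts earlier. The VEGFC stretch does not abut the GENCODE start of VEGFC, which is at chr4:176792727 and lies downstream of it.
VEGFC: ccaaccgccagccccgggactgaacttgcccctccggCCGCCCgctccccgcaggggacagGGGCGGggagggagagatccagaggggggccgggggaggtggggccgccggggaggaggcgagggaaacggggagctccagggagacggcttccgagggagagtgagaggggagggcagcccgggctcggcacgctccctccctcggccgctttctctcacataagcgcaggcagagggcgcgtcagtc
ANGPTL4: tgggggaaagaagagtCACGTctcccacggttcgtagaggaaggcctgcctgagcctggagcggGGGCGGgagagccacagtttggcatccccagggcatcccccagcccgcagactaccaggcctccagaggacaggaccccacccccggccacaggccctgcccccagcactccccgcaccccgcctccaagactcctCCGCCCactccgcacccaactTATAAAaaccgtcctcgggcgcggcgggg

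Both stretches held 2 matches to GGGCGG, letters present in 42.6% of 35116 promoters of the same length. ANGPTL4 alone of the pair held TATAAA (10.7% of promoters) and ACGTG (18.5%), 1 match each. Neither held AGGTCA, the half-site of nuclear receptors such as PPARs (12.1%), or the AP-1 letters TGANTCA (6.57%). The G and C content was 74% for VEGFC and 68.8% for ANGPTL4, at percentiles 87.7 and 76.6 of all promoters, whose median was 58%.

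The silenced gene was read first as a check of the labels. METTL3 had scaled counts of 1154, 1108 and 1091 in the sh-Control libraries and 966, 1001 and 765 in the sh-METTL3 libraries. A scaled count is the number of reads of a gene divided by 1 size factor for the library. METTL3 fell by 18.5%, to a mean of 911 ± 128 from 1118 ± 32.8 (SD, n = 3), and its log2 fold change was -0.30 (SE 0.0965, limma adjusted p = 0.0108). All sh-METTL3 libraries were below all control libraries, and sh-METTL3 replicate 3 was the lowest. Without that library the log2 fold change of METTL3 was -0.18 (limma adjusted p = 0.0135). The median of all listed genes was -0.21, so the size of this fall sets METTL3 little apart from the table. The study reports lower METTL3 protein and lower m6A in its silenced ARPE-19 cells. The table holds only genes that the authors had already called, so 7747 of 7758 genes, or 99.9%, passed limma at an adjusted p of 0.05 here as well. Of all listed genes, 52.2% were called lower and 47.6% higher, and in 51.7% every sh-METTL3 library lay below every control library. With RLE scaling, another estimate of the size factors, 3330 were called lower and 3703 higher, so the larger share changes sides. A pass in this table therefore says little, and the counts below are to be read against those shares. Reads on listed genes numbered 10898434 to 17750052 per library. Libraries of a group differed by more than counting noise, with a chi-square per degree of freedom of 6.58 to 11.6 among control libraries, and sh-METTL3 replicate 3 stood apart from replicates 1 and 2 (17.6 and 16.6, against 3.89 between those).

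Of 16 RPE markers 8 were listed, 5 higher and 3 lower in the sh-METTL3 group, with a summed scaled count of 17524 to 18794 in control libraries and 30184 to 33524 in sh-METTL3 libraries, most of it from the keratins KRT8 and KRT18. Among the listed RPE markers BEST1 (log2 fold change -1.73), PMEL (-1.80) and CLDN19 (8.01 to 0 scaled counts) fell, as SERPINF1 was lower, and MITF (0.85), LRAT (0.99) and RDH5 (1.56) rose, while RPE65 and RLBP1 were not among the listed genes and were not analysed here. Of 8 endothelial markers only TIE1 was listed, at 135 to 175 in controls and 2.58 to 7.84 in sh-METTL3 libraries. Of 4 lymphatic endothelial markers PDPN and FLT4 were listed. PDPN fell from 6875 ± 522 to 1869 ± 107 (log2 fold change -1.88), and FLT4 is described with the VEGF receptors. Of 4 leukocyte markers only CD14 was listed, at 24.7 to 25.9 in controls and 0 to 2.80 in sh-METTL3 libraries. The part of these markers in the levels of the 3 genes was not tested. In RNA from a whole culture, fewer expressing cells and less RNA per cell cannot be told apart.

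SERPINF1, the vessel inhibitor, was lower by the largest fold of the 3. Its scaled counts were 1380, 1419 and 1413 in the sh-Control libraries and 164, 162 and 184 in the sh-METTL3 libraries. The groups did not overlap, and the lowest control library was 7.52 times the highest sh-METTL3 library. The means were 1404 ± 21.1 and 170 ± 11.8 (SD, n = 3), a level 87.9% lower, or 8.26-fold. On the scale of log2 of the scaled count plus 1 the difference was -3.04 (SE 0.082). Ordered by this value from the lowest, SERPINF1 was number 152 of the 7758 listed genes, of which 1024 (13.2%) were lower by at least 1 on that scale. In the order of scaled counts per kb of exonic length among all listed genes SERPINF1 moved from percentile 84.1 in control cells to percentile 34.7. The values rest on 1477 to 1730 reads per control library and 126 to 176 reads per sh-METTL3 library. The spread between libraries was 1.5% of the mean in controls and 6.93% in the sh-METTL3 group, while counting alone would give 2.52% and 8.02%.

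VEGFC, the lymphatic growth factor, was lower by a smaller fold than SERPINF1. Its scaled counts were 1749, 1814 and 1862 in control libraries and 545, 573 and 643 in sh-METTL3 libraries. The groups were again apart, with the lowest control library 2.72 times the highest sh-METTL3 library. The mean went from 1808 ± 56.5 to 587 ± 50.3, which is 67.5% lower or 3.08-fold, and the log2 difference was -1.62 (SE 0.073). By scaled counts per kb VEGFC stood at percentile 91.0 of the listed genes in control cells and at 72.3 in silenced cells, so it remained among the better expressed genes of the table. It was read with 1888 to 2193 reads in control libraries and 445 to 584 in sh-METTL3 libraries.

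ANGPTL4, the lipase inhibitor, had the fewest reads and the widest relative spread of the 3. Its scaled counts were 399.6, 343 and 309 in control libraries and 103, 133 and 156 in sh-METTL3 libraries. No sh-METTL3 library reached a control library, but the gap was narrower than for the other genes, the lowest control library being 1.99 times the highest sh-METTL3 library. The mean went from 351 ± 45.6 to 130.3 ± 26.6, which is 62.8% lower or 2.69-fold, with a log2 difference of -1.43 (SE 0.166). The spread between libraries was 13.0% of the mean in controls and 20.4% in the sh-METTL3 group, above the 5.02% and 9.23% that counting alone would give at 331 to 501 and 103 to 139 reads. The antisense gene RAB11B-AS1, which overlaps ANGPTL4, went the other way, from 24.5 to 57.7 (log2 fold change 1.20). All 3 genes had their highest sh-METTL3 value in replicate 3, the library in which METTL3 itself was lowest. That library also stood apart from replicates 1 and 2 over the listed genes, and a relation to METTL3 was not tested. For SERPINF1 the spread of the sh-METTL3 libraries (6.93%) was below counting noise (8.02%), so their order says nothing. Without sh-METTL3 replicate 3 the log2 differences were -3.10 for SERPINF1, -1.69 for VEGFC and -1.57 for ANGPTL4.

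**Figure D1:**
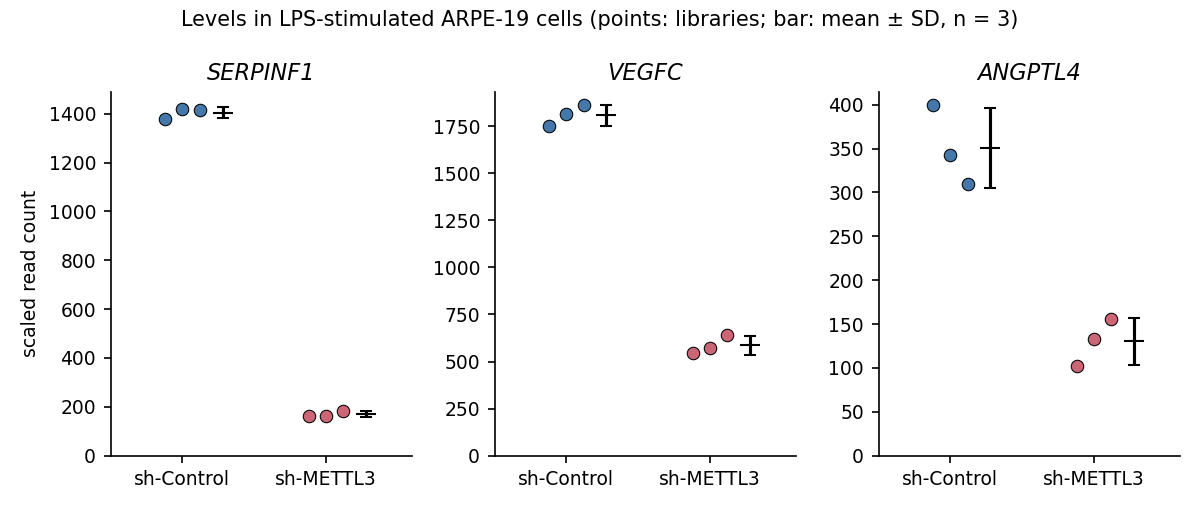
Scaled read counts of SERPINF1, VEGFC and ANGPTL4 on linear axes from 0, with each point a library and bars the mean ± SD of 3 libraries. The sh-METTL3 points lie below all control points in each panel, with the widest gap for SERPINF1 (162 to 184 against 1380 to 1419) and the widest spread for ANGPTL4.

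Levels of different genes were compared per kb of exonic length, which is 3069 bases for SERPINF1, 2420 for VEGFC and 2482 for ANGPTL4. In control cells the order was VEGFC at 747 ± 23.4 scaled counts per kb, SERPINF1 at 458 ± 6.87 and ANGPTL4 at 141 ± 18.4, each step wider than the spread. In silenced cells VEGFC was still first at 243 ± 20.8 per kb. SERPINF1 at 55.4 ± 3.84 and ANGPTL4 at 52.5 ± 10.7 were then not separated beyond their spread, and ANGPTL4 ranged from 41.3 to 62.7 per kb around the SERPINF1 values of 52.9 to 59.8. This order depends on the length used, as given with the ratios.

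The balance between the inhibitor and each of the other factors was taken inside each library, where the size factor of the library drops out. The log2 ratio of SERPINF1 to VEGFC per kb was -0.68, -0.70 and -0.74 in control libraries and -2.07, -2.16 and -2.15 in sh-METTL3 libraries. There were thus 1.63 VEGFC reads per kb for each SERPINF1 read per kb in control cells and 4.37 in silenced cells, a shift of 2.68-fold toward VEGFC. The mean log2 ratios were -0.71 ± 0.029 and -2.13 ± 0.049 (SD, n = 3), and their difference was -1.42. VEGFC itself was lower, and the ratio moved with the larger fold difference of SERPINF1, not with more VEGFC.

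The log2 ratio of SERPINF1 to ANGPTL4 per kb was 1.48, 1.74 and 1.89 in control libraries and 0.37, -0.015 and -0.068 in sh-METTL3 libraries. SERPINF1 was 3.26 times ANGPTL4 in control cells and 1.07 times ANGPTL4 in silenced cells, a shift of 3.05-fold, with log2 means of 1.70 ± 0.205 and 0.096 ± 0.240 and a difference of -1.61. VEGFC and ANGPTL4 kept closer to each other. Their log2 ratio was 2.17, 2.44 and 2.63 in control libraries and 2.45, 2.15 and 2.08 in sh-METTL3 libraries, so the groups overlapped. Its difference of -0.19 was below the SDs of 0.231 and 0.193. The level of each ratio depends on the length used: with the length of the principal transcript the SERPINF1 to VEGFC ratio of control cells was 0.050 in place of -0.71 and that of SERPINF1 to ANGPTL4 in silenced cells was 0.68 in place of 0.096, while the difference between the groups does not depend on length.

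**Figure D2:**
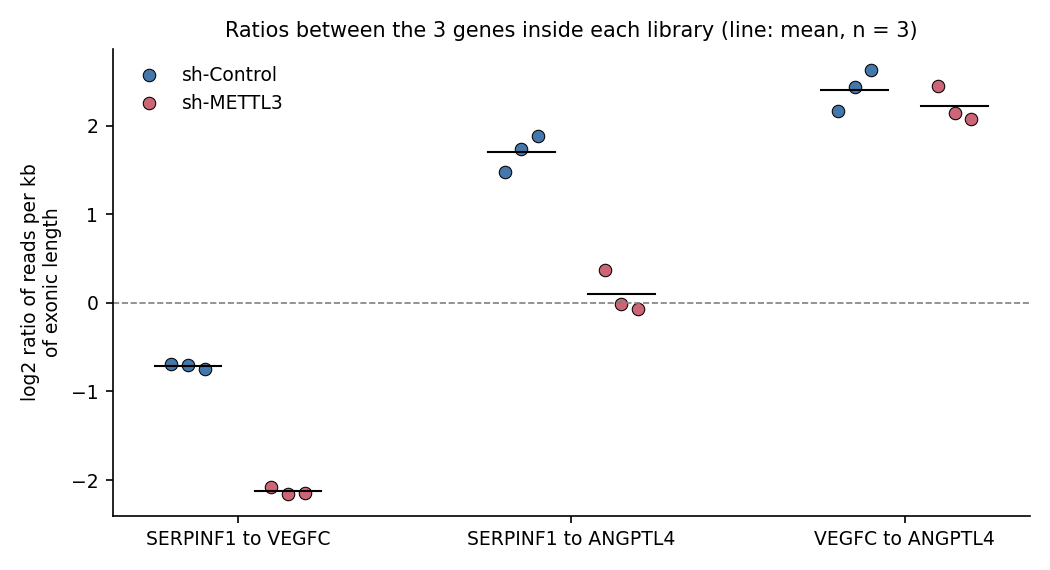
Log2 ratios of reads per kb of exonic length between pairs of the 3 genes, inside each library, with each point a library and the line the mean of 3. Both ratios with SERPINF1 were lower in the sh-METTL3 libraries without overlap, by 1.42 (VEGFC) and 1.61 (ANGPTL4) on the log2 scale, and the VEGFC to ANGPTL4 ratios overlapped.

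Of the 5 VEGF ligands 3 were listed, and beside VEGFC both of the others were called lower in silenced cells, as were 52.2% of all listed genes. VEGFA, the main growth factor for blood vessels, had the smallest difference, from 5566 ± 342 to 4208 ± 639 scaled counts (log2 fold change -0.41, SE 0.096, limma adjusted p = 0.00228). PGF, placental growth factor and a ligand of VEGFR-1, fell from 54.2 ± 2.89 to 18.5 ± 7.39 (log2 fold change -1.56, SE 0.285).

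The receptors of VEGFC moved in both directions. Of 5 VEGF receptors and co-receptors 3 were listed, 2 called higher and 1 lower. FLT4, the main VEGFC receptor, had only 18.5 ± 5.88 scaled counts in control libraries and rose to 67.2 ± 15.8 in sh-METTL3 libraries (log2 fold change 1.83, SE 0.302, limma adjusted p = 0.000308). NRP2, the co-receptor that binds VEGFC, rose from 3210 ± 94.8 to 4517 ± 307 (log2 fold change 0.49). NRP1, a co-receptor for VEGFA that also binds VEGFC, fell from 2431 ± 129 to 917 ± 146 (log2 fold change -1.42). FLT4 and NRP2 thus had the opposite direction to VEGFC and NRP1 the same.

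VEGFC is made as a precursor that is cut by proprotein convertases and then by ADAMTS3 with the help of the scaffold protein CCBE1. Of 9 genes of this processing 8 were listed, 4 called higher and 4 lower (median log2 fold change 0.12, beside -0.21 for all listed genes). Both genes of the final step fell, CCBE1 from 4558 ± 418 to 2474 ± 73.1 (log2 fold change -0.88) and ADAMTS3 from 113 ± 9.86 to 49.7 ± 7.12 (-1.17). Relatives of ADAMTS3 that mainly process procollagen rose. ADAMTS2 went from 1.6, 0.961 and 3.74 to 738, 722 and 645 scaled counts, and no fold is given over so few control reads. ADAMTS14 went from 88.0 ± 1.75 to 166 ± 3.60 (log2 fold change 0.91). Among the convertases FURIN fell by 0.19 and PCSK7 fell by 0.39 on the log2 scale, and PCSK5 rose by 0.80. CTSD, a lysosomal protease that can also cut VEGFC, rose by 0.43.

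The angiopoietin family around ANGPTL4 moved in both directions. Of 13 angiopoietins, angiopoietin-like proteins and their receptors 6 were listed, 4 called lower and 2 higher, and without ANGPTL4 it was 3 lower and 2 higher. ANGPTL2, an inflammatory angiopoietin-like protein, had a difference close to that of ANGPTL4, from 1280 ± 197 to 527 ± 145 (log2 fold change -1.30, SE 0.171). ANGPTL7 rose from 164, 206 and 252 to 2177, 2218 and 1160 scaled counts (log2 fold change 3.12, SE 0.235, limma adjusted p = 1.69e-06). ANGPTL7 was below ANGPTL4 per kb in control cells, 92.6 ± 19.9 against 141 ± 18.4, and above it in silenced cells, 827 ± 268 against 52.5 ± 10.7. ANGPTL6 rose from 16.7 ± 5.47 to 35.1 ± 8.97 (1.05). ANGPT1, the activating ligand of the receptor TEK, fell from 23.5 ± 8.12 to 7.74 ± 1.21 (-1.45), and TIE1, its partner receptor, from 157 ± 20.4 to 5.65 ± 2.74 (-4.66).

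**Figure D3:**
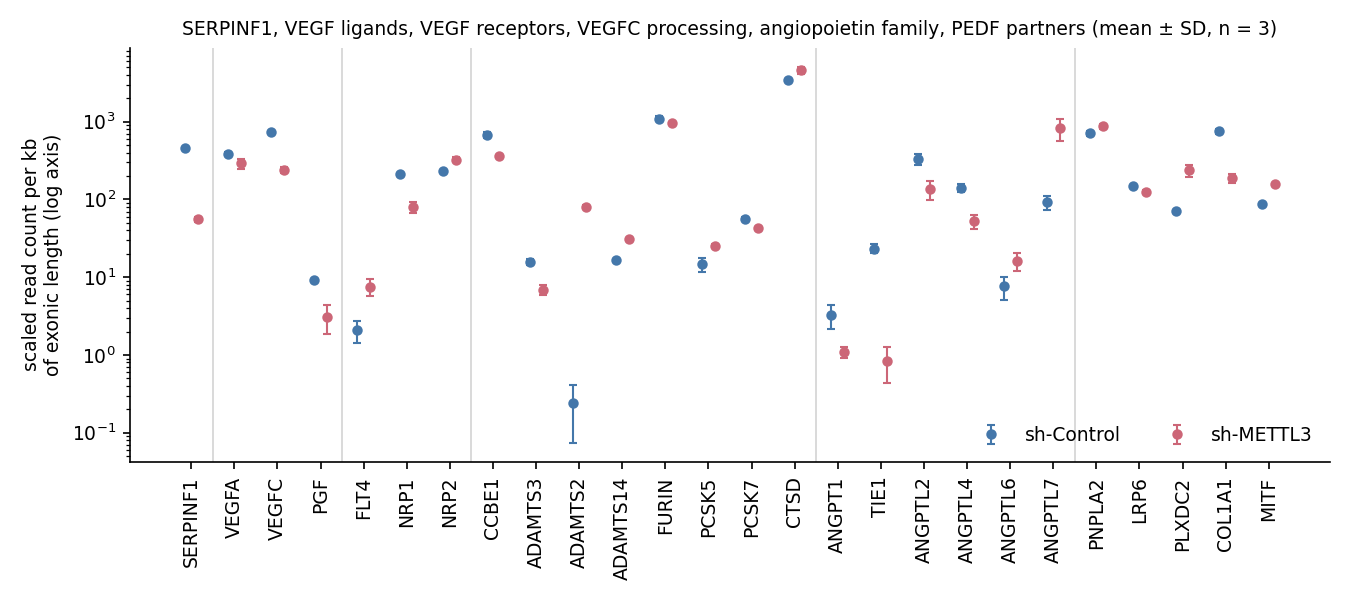
Mean scaled count per kb of exonic length (log axis, ± SD, n = 3) of SERPINF1, then of the listed VEGF ligands, VEGF receptors, VEGFC processing genes, angiopoietin family and PEDF partners, parted by grey lines. VEGFC went from 747 to 243 per kb, and ANGPTL4 (141 to 52.5) and ANGPTL7 (92.6 to 827) exchanged their order.

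The genes through which ANGPTL4 is regulated and acts were described next. Of 6 lipases and lipase partners only GPIHBP1, the endothelial anchor of lipoprotein lipase, was listed, at 2.39, 0 and 0 scaled counts in control libraries and 13.1, 3.87 and 6.72 in sh-METTL3 libraries, too few reads to give a fold. Of 16 PPAR factors and targets 10 were listed, 7 called higher and 3 lower (median log2 fold change 0.37). PPARA and PPARD, which encode the receptors, fell by 0.54 and 0.50 on the log2 scale. The target PLIN2, a lipid droplet coat protein, rose from 4929 ± 40.3 to 9955 ± 381 (log2 fold change 1.01), PDK4, a mitochondrial kinase, rose by 0.83 and CAT, catalase, by 0.70. CPT1A, which admits fatty acids to mitochondria, fell by 0.44. ANGPTL4, with -1.43, thus had the opposite sign to 7 of the 10 listed genes of this list.

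Of 26 hypoxia factors and targets 13 were listed, ANGPTL4 among them, and 12 were called, 7 higher and 5 lower (median log2 fold change 0.44). Without ANGPTL4 it was 7 higher and 4 lower of 12 listed. HIF1A, the oxygen-regulated subunit of the hypoxia factor, rose by 0.83 on the log2 scale, as did the carbonic anhydrase CA9. ADM, the vasodilator adrenomedullin, rose by 0.65 and PGK1, a glycolytic kinase, by 0.55. P4HA1, a collagen hydroxylase, fell by 0.62, VHL, which marks the hypoxia factor for degradation, by 0.49, and VEGFA by 0.41. ENO1, a glycolytic enzyme, was the listed gene that was not called (log2 fold change 0.18, limma adjusted p = 0.0589, and 0.10 with an adjusted p of 0.15 without sh-METTL3 replicate 3), and with TMM or RLE scaling, DESeq2 or edgeR all 13 were called, 8 higher and 5 lower. EGLN3, an oxygen-sensing hydroxylase of the same list that was named after its values were seen, fell by more than the difference of ANGPTL4, from 109.6 to 12.4 scaled counts (log2 fold change -3.06).

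The known partners of PEDF were read as the counterpart of SERPINF1. Of 10 PEDF receptors and partners 5 were listed, 3 called higher and 2 lower, so the listed partners had no common direction. PLXDC2, a membrane receptor for PEDF, rose from 886 ± 32.7 to 2975 ± 510 (log2 fold change 1.73, SE 0.109, limma adjusted p = 5.28e-07). PNPLA2, the lipase that also binds PEDF, rose by 0.29 and LRP6, a Wnt co-receptor that binds it, fell by 0.27 on the log2 scale. COL1A1, the collagen chain that PEDF binds, fell from 7382 ± 538 to 1848 ± 243 scaled counts. MITF, a pigment cell transcription factor that activates SERPINF1, rose from 623 ± 23.1 to 1121 ± 47.8 (0.85), opposite to SERPINF1. Of the 13 listed serpin genes 5 were higher and 8 lower, and the one with a lower log2 fold change than SERPINF1 was SERPINB2, an inhibitor of plasminogen activators (-4.84).

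SERPINF1 was then set beside other inhibitors of vessel growth. Of 31 endogenous angiogenesis inhibitors 14 were listed, 10 called lower and 4 higher (median log2 fold change -0.85). Without SERPINF1 it was 9 lower and 4 higher (69.2% lower, median -0.81). Of all listed genes 52.2% were called lower, and their median was -0.21. The semaphorins SEMA3A (300.5 to 79.4, log2 fold change -1.91) and SEMA3F (-0.92) fell, as did the protease ADAMTS1 (3864 to 1154, -1.73). The metalloprotease inhibitors TIMP3 (4420 to 6889, 0.64) and TIMP2 (0.38) rose, and so did VASH1, vasohibin (0.93), whose sh-METTL3 libraries ranged from 204 to 408. CXCL11, a chemokine named after its values were seen, went from 2.39, 4.80 and 8.41 scaled counts to 0 in every sh-METTL3 library, at least 4.75-fold lower by a floor of 3 reads over the group, so its order relative to SERPINF1 cannot be given. With CXCL11 at that bound the median of the list was also -0.85. CXCL14, a chemokine also named after its values were seen, rose from 2.81 ± 2.45 to 43.6 ± 9.66 scaled counts. No fold is given for CXCL14 over so few control reads.

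Promoters of vessel growth also leaned lower. Of 46 secreted angiogenic factors 30 were listed, VEGFC and ANGPTL4 among them, 24 called lower and 6 higher (median log2 fold change -1.27). Without VEGFC and ANGPTL4 it was 22 lower and 6 higher of 28 (78.6% lower, median -1.15), beside 52.2% of all listed genes called lower. The chemokines CXCL2 (714 to 73.5, log2 fold change -3.26) and CXCL8 (35630 to 7784, -2.20) were among the largest falls, with the growth factors PTN (590 to 97.9, -2.58) and PDGFB (836 to 179, -2.25). NRG1, a ligand of ERBB receptors, rose by 0.95, ADM by 0.65, the heparin-binding factor MDK by 0.62 and the Notch ligand JAG1 by 0.37, or by 0.20 without sh-METTL3 replicate 3. The lists of inhibitors and of promoters were thus both lower by their medians, beside -0.21 for all listed genes. No difference between the 2 lists was tested.

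**Figure D4:**
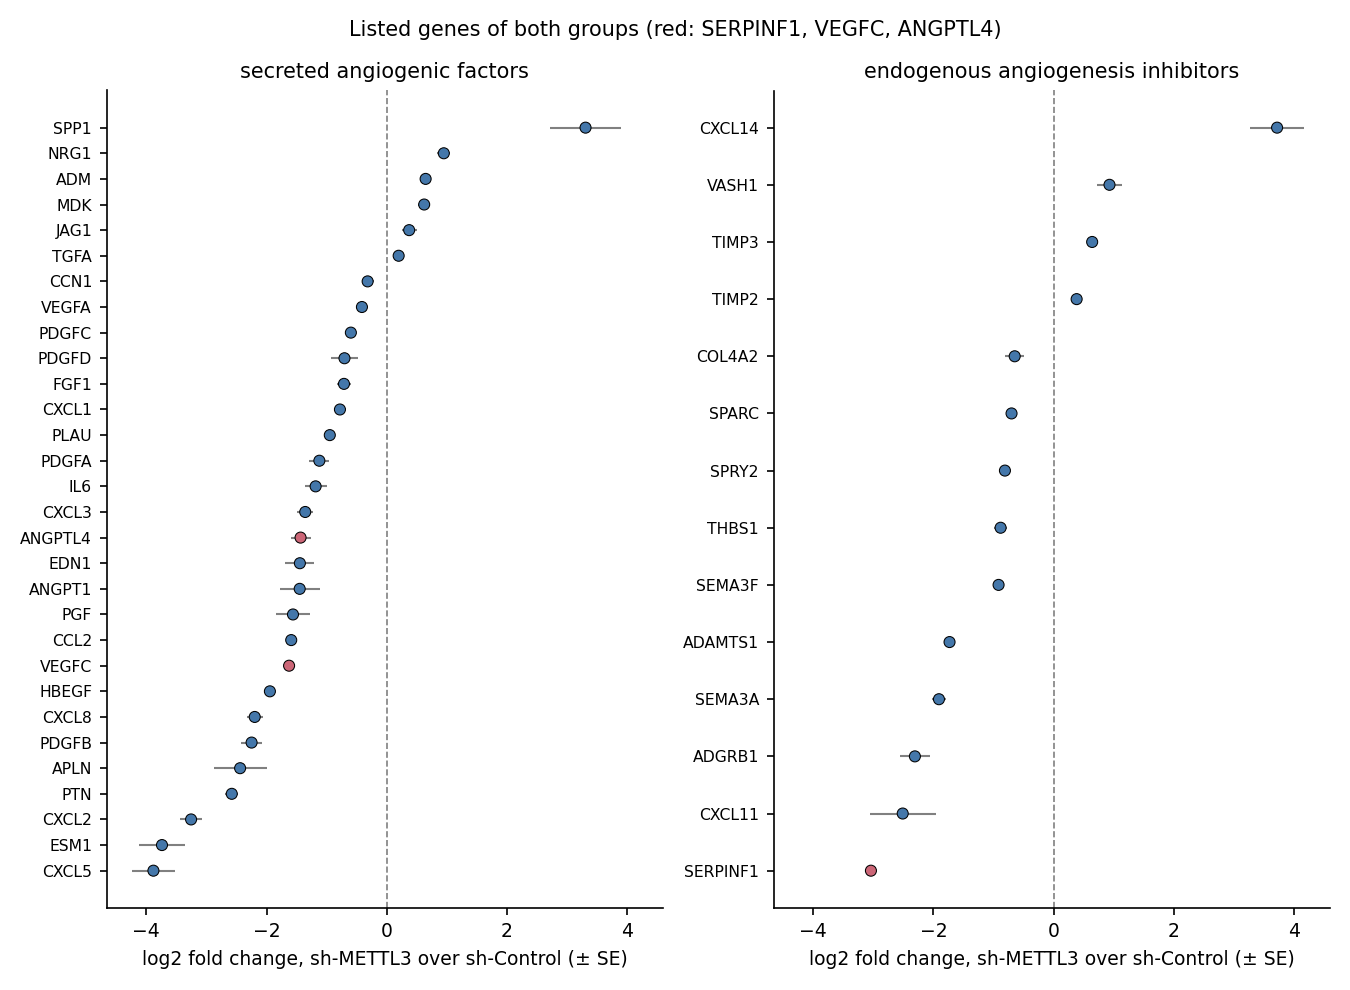
Log2 fold changes (sh-METTL3 over sh-Control, ± SE) of the 30 listed secreted angiogenic factors and the 14 listed angiogenesis inhibitors, sorted, with SERPINF1, VEGFC and ANGPTL4 in red. SERPINF1 lies at -3.04, 24 of the 30 factors lie below 0, and the point of CXCL11, at 0 in all sh-METTL3 libraries, is set by the pseudocount of 1.

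The genes whose profile over the 6 libraries was nearest to each of the 3 were found by the root mean square distance of log2 values, centred for each gene on the mean of its control libraries, among 5724 listed protein-coding genes with a mean scaled count of at least 100. For SERPINF1 they were PDE10A (distance 0.138), CSPG4 (0.141), DMKN (0.149) and ADA2 (0.159), each 8.70 to 9.59-fold lower. For VEGFC they were SERPINA1 (0.0443), DCBLD1 (0.0563), COL27A1 (0.0612) and SERPINE2 (0.0697). For ANGPTL4 they were SORBS2 (0.111), SOBP (0.129), TSPOAP1 (0.132) and the chemokine CXCL3 (0.133). The distances were shortest for VEGFC, so genes with its profile were the most closely matched, and 2 of its 4 nearest genes were serpins. With 2 groups such a distance mostly reflects the size of the difference.

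The neighbourhoods of the 3 genes did not share a direction. Within 1 Mb of the start of SERPINF1 15 genes were listed, 7 higher and 8 lower, and their median log2 fold change was -0.14. They ran from RAP1GAP2 at -5.41 to NXN at 2.92, apart from RTN4RL1, which was at 0 in all control libraries and at least 9.31-fold higher in silenced cells by the same floor. Around VEGFC 3 genes were listed, GPM6A at -1.66, SPCS3 at -0.64 and AGA at 0.51. Around ANGPTL4 13 of 15 listed genes were higher (median 0.89), among them KANK3, CD320 and RAB11B within 55 kb of its start at 1.38, 0.54 and 0.77. ANGPTL4 thus lay lower among listed neighbours that were mostly higher, beside 47.6% of all listed genes called higher. Of 64 annotated protein-coding genes in that window only 14 were listed, and KANK3 had a control mean of only 13.9 scaled counts. The genes in these windows were named by position after their values were known.

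**Figure D5:**
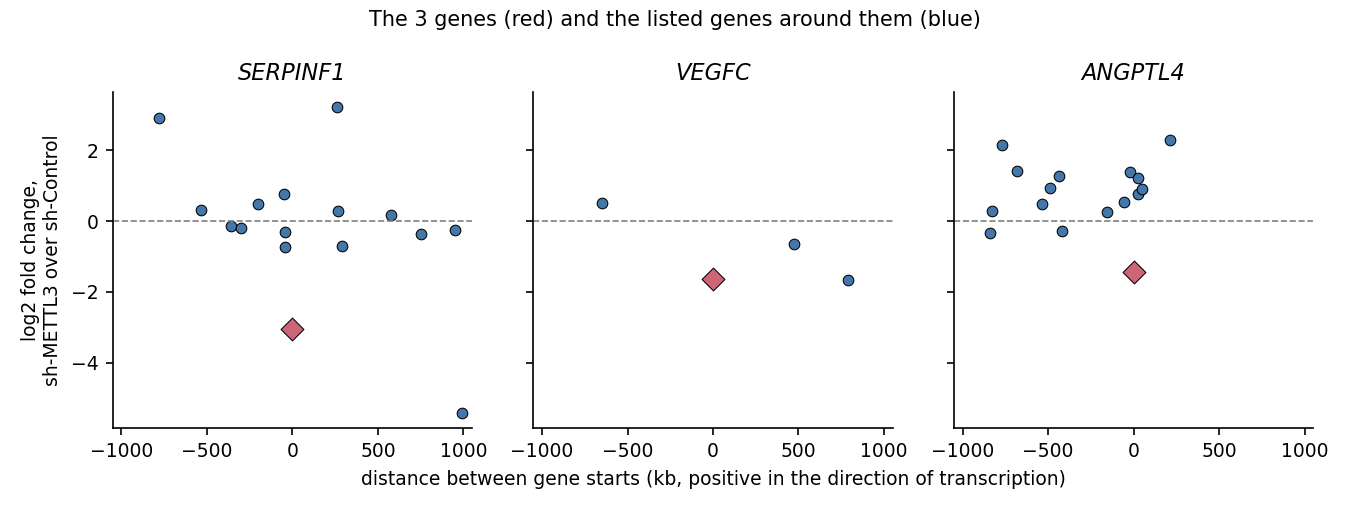
Log2 fold change of the listed genes around SERPINF1, VEGFC and ANGPTL4 (red diamonds) against the distance between gene starts in kb, positive in the direction of transcription. Around ANGPTL4 (-1.43) 13 of 15 neighbours lie above 0, and around SERPINF1 (-3.04) 7 of 15 do, of which the top point, RTN4RL1, is set by the pseudocount. Of all listed genes 47.6% were called higher.

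The study had itself picked VEGFC and ANGPTL4 for quantitative PCR, from genes in which its sequencing found lower m6A after METTL3 silencing. It also measured ANGPTL4 protein by western blot. The primers show which part of each mRNA the PCR reads. Both ANGPTL4 primers match coding sequence, the forward one in exon 5 (chr19:8371091-8371110) and the reverse one in exon 6 (chr19:8371262-8371282), with an amplicon of 103 bases across the junction. Both VEGFC primers match coding sequence in exon 2 (chr4:176729705-176729725 and chr4:176729630-176729652), with an amplicon of 96 bases inside 1 exon. Each primer matched the principal transcript of 1 listed gene only, and the PCR and protein values were not analysed here.
ANGPTL4 forward: ggctcagtggacttcaaccg
ANGPTL4 reverse: ccgtgatgctatgcaccttct
VEGFC forward: gaggagcagttacggtctgtg
VEGFC reverse: tcctttccttagctgacacttgt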

How the data were processed

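Total RNA of the 6 libraries was extracted with Trizol and prepared with the Illumina TruSeq kit. The submitters' processing notes name HISAT2 2.0.5 and hg38, while the methods name Cufflinks with RefSeq mRNAs. The form of the table, with Ensembl identifiers whose coordinates equal GENCODE release 29, differs from that. The counter and strandedness were not given in the sources used here. Per library the authors deposited a signal per gene, the read count over 1 size factor, and dividing by the worth of a single read gave whole reads (within 0.02 reads) for 100% of values. The columns of group means, fold changes and p-values were not used. The authors kept only genes they had called, so library depth is unknown, as are all genes outside the table.

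Values were taken as log2(scaled count + 1) and fitted for all 7758 genes with limma 3.58.1 (R 4.3.3), an intensity trend and no covariates, and p-values were adjusted by Benjamini-Hochberg over the listed genes (threshold 0.05). The scripts were tested on simulated data. edgeR 4.0.16 and DESeq2 1.42.0 on the recovered reads, TMM and RLE scaling, a pseudocount of 0.1, a mean of at least 50 and leaving out each library were alternatives. Libraries with the same replicate number did not deviate together (correlations 0.0112, -0.0425 and -0.0532 over 6532 genes), so they were not paired.

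The 3 genes and the gene lists were chosen with earlier results of these data known. Named were the 3 genes, METTL3, each listed gene of the short lists, of the 4 longer lists the 4 called genes with the largest rise and fall at a mean of at least 100, and the 4 nearest profiles of each gene; 1 gene under this rule is not reported here. Neighbours, marker genes and antisense genes were added by position or list.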

Additional observations from a re-analysis of the deposited data

How the results depend on the processing

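The log2 differences of SERPINF1, VEGFC and ANGPTL4 kept their sign under each alternative run. RLE scaling, which shifted the median of all listed genes by 0.12 on the log2 scale, gave -2.92 for SERPINF1 and -1.50 for VEGFC. Leaving out each library in turn gave -3.10 to -3.01 for SERPINF1, -1.69 to -1.57 for VEGFC and -1.57 to -1.27 for ANGPTL4, and differences of -1.45 to -1.40 and -1.74 to -1.52 in the ratios of SERPINF1 to VEGFC and to ANGPTL4. The smallest absolute log2 fold change was 0.13, in a table that holds only genes the authors had called. This gap comes with that filter, so it cannot show that signs withstand a change of scaling. The RLE shift of 0.12 was nearly as large. With the length of the principal transcript the control ratio of SERPINF1 to VEGFC turned from -0.71 to 0.050 and the ratio of SERPINF1 to ANGPTL4 was 2.29 in control and 0.68 in sh-METTL3 libraries; this length was chosen after seeing the data. With the replicate number as a block limma called 7750 genes in place of 7747, and no call on the 4 longer lists changed; the numbers did not pair the libraries. The count of listed genes called was 7033 with RLE scaling (3703 higher and 3330 lower), 6722 when adjusted over 60000 tests, 7758 with DESeq2 or edgeR and 7579 to 7704 with 1 library left out. Of the 13 hypoxia genes 12 were called, and 13 with TMM or RLE scaling, DESeq2 or edgeR. Of the 30 angiogenic factors 26 were called over 60000 tests, 22 lower and 4 higher. At 103 to 139 reads per sh-METTL3 library ANGPTL4 is the least precise of the 3 genes.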
